A study of Osmanthus fragrans with 6 samples.

Results

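Petals of Osmanthus fragrans var. semperflorens at the initial flowering stage were compared between the second and the first flowering round, over the transcripts of high mean abundance. A transcript entered when its count scaled to a common column total (CPM) averaged 100 or more over the 6 libraries of the series, a rule that 1952 of 96596 assembled transcripts met. The averages of the transcripts nearest that threshold were 100.041 CPM inside and 99.9753 CPM outside. The inside one had 123.7 CPM in round 2 against 186.1 CPM in round 1, and the outside one had 116.8 against 130.3 CPM. All 6 libraries came from petals of this variety, growing on trees under natural conditions and gathered in September, with no treatment. The initial stage of round 2 (initial 2) was set against the initial stage of round 1 (initial 1). The full-bloom stage of round 2 (full 2) and the full-bloom, late full-bloom and abscission stages of round 1 (full 1, late full 1 and abscission 1) served as points of comparison. Each library was 1 pool of 5 replicates, so no spread between samples was measured, no test between the rounds was possible, and every interval here is an exact 95% interval for counting error only. Reads are not independent molecules and the pools add a spread of their own, so the true uncertainty is larger. The spread of ratios over transcripts is likewise no replicate error.

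Sweet osmanthus is an evergreen tree grown for fragrant flowers, and the semperflorens group flowers in repeated rounds. Petal colour in this species comes mainly from carotenoids, isoprenoid pigments whose level depends on biosynthetic enzymes and on dioxygenases that cleave them into scent compounds. The initial stage is the opening of the flower, from which the transcriptome moves through full bloom to senescence and shedding of the corolla. The count table gives assembly IDs with no gene names, so members are given by ID and level, without a function. Carotenoid genes, other gene groups and markers of petal or other tissues were not analysed here, and the tissue label was not checked against markers.

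Initial 2 held 39119108 counts and initial 1 held 107466, while the other 4 libraries held 17826688 to 25917468. One count in initial 1 therefore stood for 9.31 CPM, and a floor of 3 counts for 27.9 CPM, against 0.0767 CPM in initial 2. The 1952 members took 58.8% of the counts of initial 2 and 56.6% of those of initial 1. The median member had 6847 counts in initial 2 and 19 in initial 1. Their median levels were 175.0 CPM in initial 2 and 176.8 CPM in initial 1. Initial 1 stands apart from every other library by its depth. The labels give no reason for this, and the table does not show whether its column holds the whole library, so its levels and its counts of 0 are those of the column as deposited. Depth and round cannot be told apart in this pair, and no value of the pair can be had without initial 1.

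The members with the clearest differences, ranked by the bound of the counting interval nearest to no change, were c151332_g1_i1 and c158147_g2_i3 on the higher side, and c115111_g1_i1 and c139594_g1_i1 on the lower side.

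Transcript c151332_g1_i1 was among the most abundant members, ranking 15 by mean CPM. It stood at 3513 CPM in initial 2 and 3572 CPM in full 2, against 447 CPM in initial 1, 1854 in full 1, 4627 at late full bloom and 3082 at abscission. Initial 1 was thus its lowest library, and initial 2 lay among the later stages of round 1. From 137425 counts in initial 2 and 48 in initial 1, it was 7.87-fold higher in initial 2 (95% interval 5.93 to 10.7).

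Transcript c158147_g2_i3 had 7982 counts in initial 2, or 204.0 CPM, and none in initial 1. With 3 counts as the floor of initial 1, the difference was at least 7.31-fold, higher in initial 2, and the lower limit of its exact interval was 5.94. Its other levels were 248.0 CPM in full 2, 124.3 in full 1, 62.1 at late full bloom and 42.9 at abscission of round 1. Every other library thus held it above the floor of initial 1, and both round 2 libraries held more of it than any library of round 1.

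Transcripts c115111_g1_i1 and c139594_g1_i1 had nearly the same course. The first stood at 62.1 CPM in initial 2 and 2.86 in full 2, against 1117 CPM in initial 1, 69.1 in full 1, 0.733 at late full bloom and 4.71 at abscission. The second stood at 67.7 CPM in initial 2 and 3.38 in full 2, against 837 CPM in initial 1, 78.0 in full 1, 2.08 at late full bloom and 5.44 at abscission. Both were highest in initial 1, and their levels in initial 2 lay close to those of full 1.

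On 2431 counts in initial 2 and 120 in initial 1, c115111_g1_i1 was 17.97-fold lower in initial 2 (95% interval 14.8 to 21.6). On 2650 and 90 counts, c139594_g1_i1 was 12.4-fold lower in initial 2 (95% interval 9.91 to 15.3). Set against full 1, a library of ordinary depth, the levels in initial 2 were only 1.11-fold lower for c115111_g1_i1 (95% interval 1.04 to 1.19) and 1.15-fold lower for c139594_g1_i1 (95% interval 1.08 to 1.23).

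A rule by abundance took 2 steady members, the highest by mean CPM of the 692 (35.5%) whose interval held 1 and lay wholly within 2-fold either way. Transcript c150214_g2_i1 stood at 1627 CPM in initial 2 and 3122 in full 2, against 1526 CPM in initial 1, 2095 in full 1, 5603 at late full bloom and 8427 at abscission. Transcript c237575_g1_i1 stood at 4694 CPM in initial 2 and 2147 in full 2, against 4829 CPM in initial 1, 4601 in full 1, 4126 at late full bloom and 999 at abscission. In round 1 the first was highest and the second lowest at abscission, and yet both stood at nearly 1 level in the 2 initial libraries. The ratio of initial 2 to initial 1 was 1.07 for c150214_g2_i1 (95% interval 0.915 to 1.25) and 0.972 for c237575_g1_i1 (95% interval 0.892 to 1.06).

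**Figure D1:**
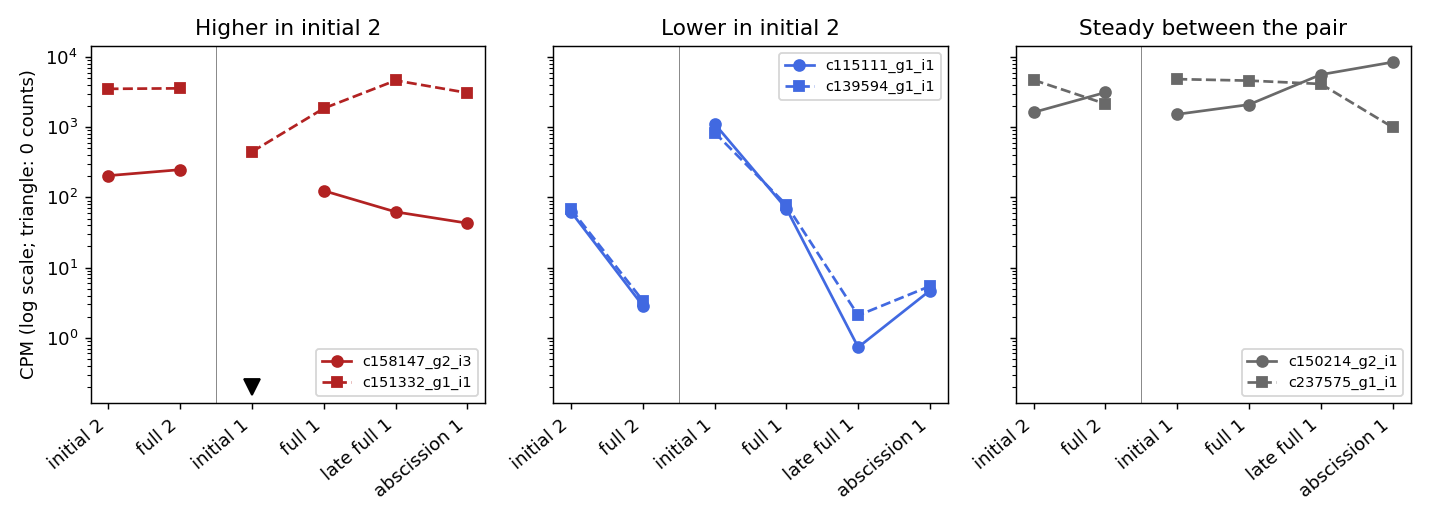
CPM on a log scale of the 6 named transcripts in each of the 6 libraries, round 2 left of round 1 in each panel, with 1 pooled library per point and a black triangle for 0 counts. The 2 transcripts of the left panel had their lowest level in initial 1, those of the middle panel had their highest level there, and those of the right panel had nearly equal levels in initial 2 and initial 1.

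The choice of scaling bears on these folds. TMM, a scaling that trims extreme transcripts, gave initial 2 a factor of 1.11 and initial 1 a factor of 1.51 when computed over the 30524 transcripts that reached 1 CPM in any library (the kept transcripts). With these factors c151332_g1_i1 was 10.7-fold higher in initial 2 (95% interval 8.08 to 14.5) and c158147_g2_i3 at least 9.95-fold higher. Transcript c115111_g1_i1 was 13.2-fold lower (95% interval 10.9 to 15.9) and c139594_g1_i1 9.08-fold lower (95% interval 7.27 to 11.2). A scaling moves every ratio by 1 common factor, so the direction of these 4, picked for folds far from 1, could not turn. The steady members did not stay at 1, with ratios of 1.45 for c150214_g2_i1 (95% interval 1.25 to 1.703) and 1.32 for c237575_g1_i1 (95% interval 1.21 to 1.45). Over the members alone the TMM factors were 1.08 for initial 2 and 1.05 for initial 1, which leaves the folds close to those from column totals.

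Most of the abundant transcripts stood at similar levels in the 2 rounds. Of the 1952 members, 1606 (82.3%) had a ratio within 2-fold either way, or 1452 (74.4%) with TMM factors over the kept transcripts. In the other pairs of libraries compared below, 72.4% to 86.9% of members lay within 2-fold with column totals. The share of 82.3% is thus not particular to this pair. The median log2 ratio of initial 2 to initial 1 was 0.05, with quartiles of -0.35 and 0.50, on the 1935 members for which a ratio could be given. Over the 14225 transcripts with a ratio among all 22940 with at least 50 counts in the pair, the median was -0.32 with quartiles of -1.08 and 0.34. The median transcript of that wider set had 1 count in initial 1 (transcripts without a ratio included). Within 2-fold lay 39.3% of the wider set, or 40.6% with TMM, its transcripts without a ratio counted as outside. With TMM factors over the kept transcripts the median moved to 0.49 among the members and to 0.13 in the wider set. The median of the members was thus near 0 with column totals and positive with these TMM factors, while that of the wider set changed sign.

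Counting error left most members indistinguishable between the libraries. The interval held a ratio of 1 for 1353 members (69.3%), lay above 1 for 319 and below 1 for 280. In the wider set it held 1 for 91.9% of transcripts, lay above 1 for 586 and below 1 for 1276. The median transcript there had 1 count in initial 1, so the smaller share among members is no result about them. Counting error alone would leave about 95% of intervals holding 1 if no level differed. With TMM factors 1067 intervals of members (54.7%) held 1, 781 lay above 1 and 104 below, against 90.7% holding 1 in the wider set. The pools and the rounds cannot be told apart in the excess of intervals that left out 1.

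**Figure D2:**
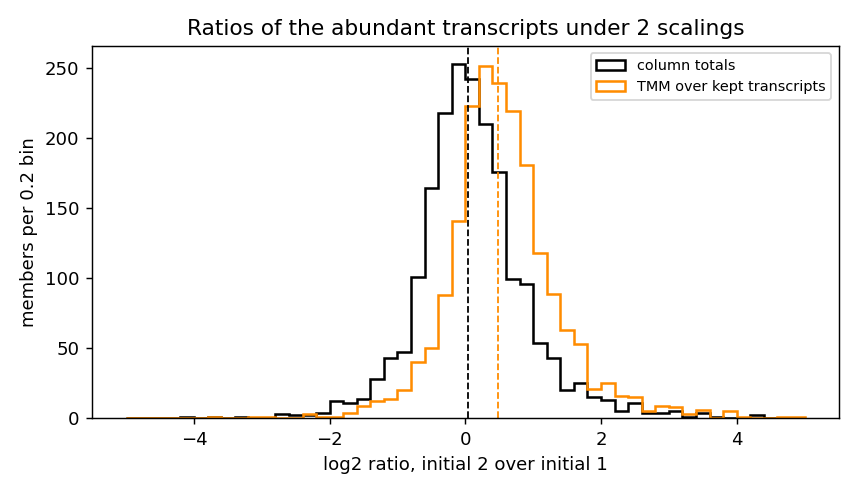
Number of members per bin of the log2 ratio of initial 2 to initial 1, scaled by column totals (black) and by TMM over kept transcripts (orange), with dashed lines at the medians of 0.05 and 0.49. The shape is the same and the whole distribution shifts towards initial 2 with TMM.

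The ranks of the 2 libraries overlapped in part. The same transcript was the most abundant in both libraries, at 28216 CPM in initial 2 and 29898 CPM in initial 1, a ratio of 0.944 (95% interval 0.912 to 0.977). Of the 100 most abundant transcripts of initial 2, 72 were among the 100 most abundant of initial 1, and 88 had a ratio within 2-fold. The top 100 took 19.9% of the counts of initial 2 and 18.7% of those of initial 1. Of the 500 most abundant, 368 (73.6%) were shared. Of the 10 most abundant, 6 were shared, and 9 of the top 10 of initial 2 had a ratio within 2-fold. Overlap of ranks in other pairs was not computed, so these shares have no scale.

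A minority of members had intervals far from equality. A member was called when its whole interval lay beyond 2-fold, and 36 members were higher and 39 lower in initial 2. With a 99% interval 21 were called higher and 28 lower. Among all 22940 transcripts of the wider set, 0.248% were called higher and 0.946% lower by this rule, against 1.84% and 1.998% of the members. The median transcript of the wider set had 1 count in initial 1 and could not be called lower, so the larger share among members is no result about them. By the ratio alone, 50 members were at least 4-fold higher and 14 at least 4-fold lower in initial 2, against 0.963% and 5.81% of the wider set. Both rules held for 28 of the higher and 13 of the lower members.

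The balance of higher and lower calls depended on the scaling. With TMM factors over the kept transcripts, 104 members were called higher and 15 lower, against 0.711% and 0.497% of the wider set. The 4-fold counts were then 95 higher and 7 lower, against 2.25% and 3.15% of the wider set. All 36 members called higher with column totals were also called with TMM, as were 15 of the 39 called lower.

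**Figure D3:**
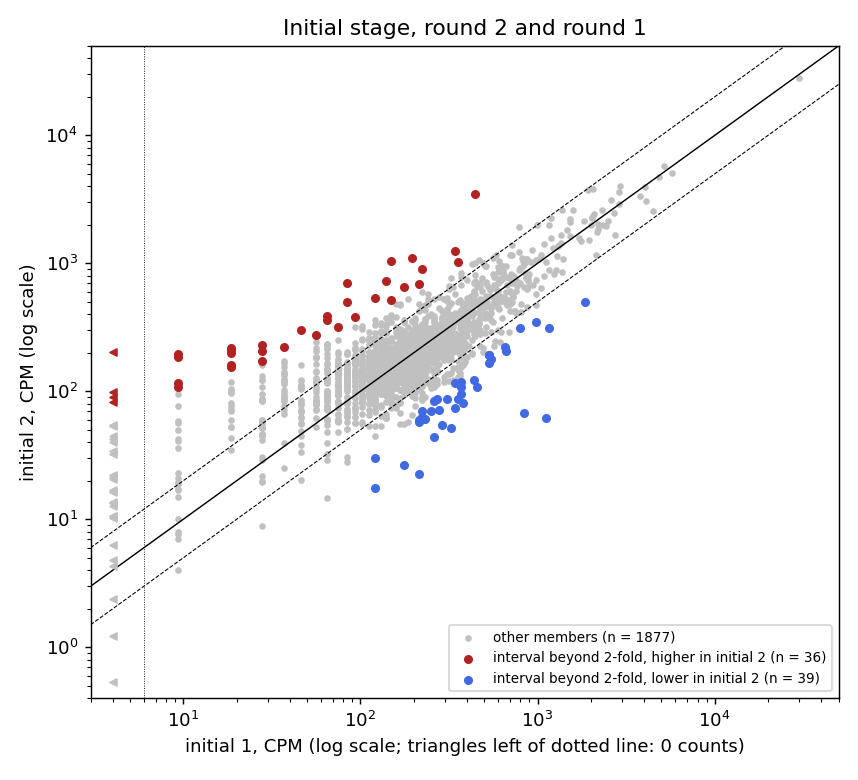
CPM in initial 2 against CPM in initial 1 for each member, both on log scales, with the line of equality, dashed lines at 2-fold either way, and triangles at the left for the 28 members with 0 counts in initial 1. Red points (36) are members called higher and blue points (39) members called lower in initial 2; the vertical strips at the left are whole counts of initial 1.

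The higher calls rest on few counts of the shallow library. The 36 members called higher had 3257 to 137425 counts in initial 2 and 0 to 48 in initial 1, with a median of 5.5 in initial 1, and 24 of them had fewer than 10 counts there. Leaving out 4 with 0 counts, their ratios ran from 2.91 to 21.1 with a median of 6.12. The 39 members called lower had 686 to 19373 counts in initial 2 and 13 to 198 in initial 1. They were 2.54-fold to 17.97-fold lower in initial 2, with a median of 3.62-fold.

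The members called with column totals held a small part of the counts of either library. The members called higher held 1.80% of the counts of initial 2 and 0.333% of those of initial 1. The members called lower held 0.469% of the counts of initial 2 and 1.78% of those of initial 1.

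The called members were spread unevenly over abundance. Between 100 and 200 CPM, 8 of 1136 members were called higher and 19 lower. Between 200 and 500 CPM, 16 of 594 were higher and 17 lower. Between 500 and 1000 CPM, 5 of 138 were higher and 3 lower, and from 1000 CPM upward 7 of 84 were higher and 0 lower. The median log2 ratio was -0.0045, 0.06, 0.22 and 0.25 in the 4 bands from low to high. Thus the most abundant members leaned towards initial 2 even with column totals, and with TMM 19 of the 84 were higher and 0 lower. Precision changed in step, since the median member had 15, 28, 60.5 and 130 counts in initial 1 in these bands. The interval of a typical member spanned 2.95-fold from its lower to its upper limit in the lowest band and 1.42-fold in the highest. The interquartile range of the log2 ratio was similar in the 4 bands, at 0.90, 0.79, 0.86 and 0.94, while the interval held 1 for 77.0% of members in the lowest band and 28.6% in the highest.

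Among the members, 28 had 0 counts in initial 1. For 17 of them the level in initial 2, from 0.537 to 22.3 CPM, was under the floor of initial 1, so no fold could be given and no difference was detectable. These 17 were members through later stages, and 16 of them were highest in abscission 1, where their median was 778 CPM. The other 11 stood at 32.4 to 204 CPM in initial 2 and were at least 1.16-fold to at least 7.31-fold higher there. By their intervals 4 of these 11 were among the members called higher.

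The other 4 libraries show where the called members stood in the course of flowering. The members called higher had median levels of 289 CPM in initial 2 and 503 in full 2, against 51.2 CPM in initial 1, 237 in full 1, 272 at late full bloom and 248 at abscission. Initial 1 was the low point, which follows in part from the choice of these members by the pair. For 28 of the 36 it lay below all 4 libraries outside the pair, as it did for 532 (27.3%) of all members. The highest library was full 2 for 17 of them, initial 2 for 10, abscission 1 for 6 and late full 1 for 3.

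The members called lower had median levels of 83.8 CPM in initial 2 and 180.2 in full 2, against 344 CPM in initial 1, 221 in full 1, 119 at late full bloom and 117 at abscission. Here both ends of the pair stood out. Initial 1 lay above all 4 libraries outside the pair for 25 of the 39, against 607 (31.1%) of all members, and initial 2 lay below all 4 for 23, against 392 (20.1%). Since the pair itself chose these members, extreme levels in its libraries follow in part from the choice.

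The library of the pair to which full bloom of round 1 mostly lay nearer differed between the 2 kinds. On the log scale full 1 was nearer to initial 2 than to initial 1 for 30 of the 36 members called higher and for 10 of the 39 called lower, against 1219 of all 1952 members. For the higher members, then, full 1 mostly lay nearer to initial 2. These members were chosen for a low level in initial 1 against initial 2, so this follows in part from the choice. For the lower members full 1 mostly lay between the initial libraries, above initial 2 for 36 and below initial 1 for 31. Over all members these counts were 1099 and 798. For the higher members full 1 lay above initial 1 for 33 and above initial 2 for 15, against 1154 and 1099 of all members. A place between the 2 libraries follows in part from choosing members by the gap between them.

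**Figure D4:**
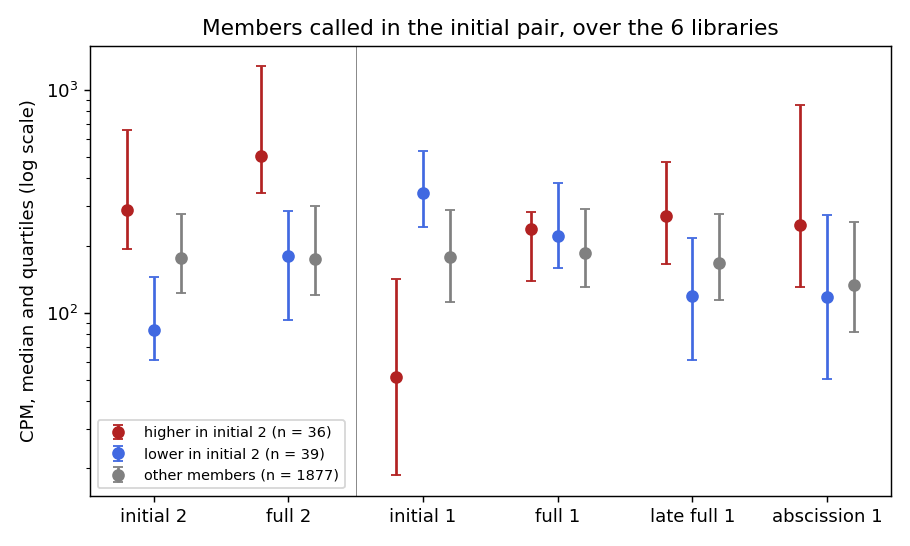
Median CPM with quartiles, on a log scale, of the 36 members called higher (red), the 39 called lower (blue) and the other 1877 (grey) in each library, round 2 left of round 1. Red members dip to 51.2 CPM in initial 1 and blue members reach 344 CPM there, while the other members stay between 133 and 184.6 CPM in all 6 libraries.

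Full bloom was the other stage sampled in both rounds, and full 2 and full 1 share no library with the initial pair. Of the 36 members called higher in initial 2, 34 were also higher in full 2 than in full 1, with a median log2 ratio of 1.34 and quartiles of 0.42 and 2.23. Of the 39 called lower, 28 were lower in full 2 than in full 1, with a median of -0.44 and quartiles of -1.09 and 0.10. Over all 1952 members, 886 (45.4%) were higher in full 2 and the median was -0.08. At full bloom the interval lay above 2-fold for 21 of the 36 and for 179 (9.17%) of all members, and below 2-fold for 10 of the 39 and for 130 (6.66%) of all members.

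The scaling changed the lower side of this picture. With TMM at full bloom the median log2 ratios were 1.62 for the 36, -0.16 for the 39 and 0.20 over all members. By direction, 35 of the 36 were then higher in full 2, and of the 39, 23 were lower and 16 higher. Over all 1952 members, 1220 (62.5%) were higher in full 2 with TMM. When TMM was used for the calls too, 97 of 104 higher members were higher in full 2 and 10 of 15 lower members were lower there. All 12 of the higher members with at least 10 counts in initial 1 were higher in full 2, with a median of 1.02. The higher members with more counts in initial 1 thus kept their direction at full bloom, though the 12 are few. This cut could not bear on the lower side, where all 39 had at least 13 counts in initial 1. Members were also chosen by a mean that includes full 2 and full 1, so their levels at full bloom are not free of the member rule. Petals were collected on different dates by stage, so the round and the date cannot be told apart.

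The 4 named members with a difference had at full bloom the direction they had at the initial stage. For c151332_g1_i1 full 2 exceeded full 1 by 1.93-fold (95% interval 1.90 to 1.95), and for c158147_g2_i3 by 1.995-fold (95% interval 1.90 to 2.10). Transcripts c115111_g1_i1 and c139594_g1_i1 were 24.2-fold lower (95% interval 18.5 to 32.3) and 23.1-fold lower (95% interval 18.02 to 30.1). Compared with the initial stage, the fold at full bloom was smaller for the higher members. It was larger for c139594_g1_i1, while the intervals of c115111_g1_i1 at the 2 stages overlapped. The full-bloom folds of c115111_g1_i1 and c139594_g1_i1 rest on 55 and 65 counts in full 2. These 4 were picked as extremes of the initial pair, so smaller folds in another pair follow in part from the choice. The steady members parted at full bloom, with ratios of full 2 to full 1 of 1.49 for c150214_g2_i1 (95% interval 1.47 to 1.51) and 0.467 for c237575_g1_i1 (95% interval 0.461 to 0.472), or 1.81 and 0.566 with TMM.

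**Figure D5:**
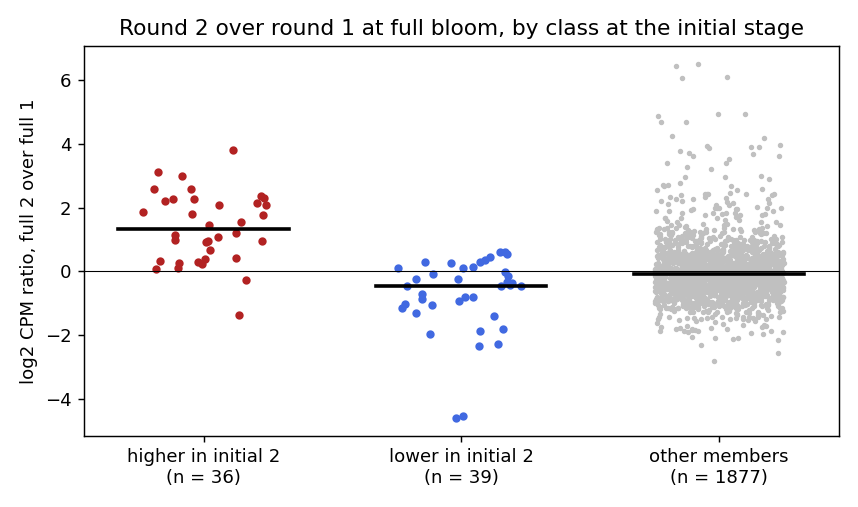
Log2 CPM ratio of full 2 to full 1 for members called higher in initial 2 (red, n = 36), called lower (blue, n = 39) and the other members (grey, n = 1877), with black bars at the medians and points spread sideways for legibility. The medians are 1.34, -0.44 and -0.09.

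Other pairs of libraries put the size of the initial-stage difference in scale, each with column totals and the 4-fold rule. The wider set was taken anew for each pair, as kept transcripts with at least 50 counts in that pair, from 17958 to 25652. In the initial pair 8715 of its 22940 had no ratio and could not be called. Its shares of the wider set are thus not on 1 footing with those of the deep pairs. Between initial 2 and initial 1, 64 members (3.28%) differed, 50 higher and 14 lower in initial 2, against 0.963% higher and 5.81% lower in the wider set. Between full 1 and initial 1, which share the shallow library with that pair, 89 members (4.56%) differed, 76 higher and 13 lower in full 1, against 6.08% of the wider set. Between initial 2 and full 1, both deep, 45 members (2.31%) differed, 13 higher and 32 lower in initial 2, against 4.87% of the wider set. Between full 2 and full 1, 86 members (4.41%) differed, 74 higher and 12 lower in full 2, against 11.3% of the wider set. Between full 2 and initial 2, 162 members (8.30%) differed, 134 higher and 28 lower in full 2, against 18.4% of the wider set. Of these 5 pairs the initial pair thus had the second lowest count of members by this rule, though its ratios also carry the counting error of 107466 counts. By intervals wholly beyond 2-fold it had the lowest. There 75 members were called, against 94 between full 1 and initial 1 and 225 to 496 in the other pairs. In the wider set of the initial pair, 0.248% were called higher and 0.946% lower by this rule. Such shares were not computed for the other pairs. The rule calls fewer members where counts are few, and both pairs that hold initial 1 had the fewest calls. The place of the initial pair by intervals thus cannot be separated from depth and is no result about the rounds.

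Related assembly IDs were examined because transcripts of 1 component of the assembly can share reads. Each of the 96596 transcripts came from a different assembly gene, but 288 members lay in 135 components that held 2 to 4 members each. Of the 75 called members, 64 were alone in their component among the members and 11 shared it with another member. In 1 component more than 1 member was called, in 1 direction, in 9 components 1 member was called, and in none were the calls in both directions. Within a component the log2 ratios of members were spread by a median of 0.58 and by at most 2.72.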

How the data were processed

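Petal RNA was extracted with TRIzol and poly-A RNA was selected for Illumina libraries, per the labels' protocols. The submitters' processing notes name CASAVA 1.7. The reads were assembled without a genome, per the series title, and what assembled, aligned and counted them is not stated in these sources. The authors deposited unscaled estimated counts as 1 table of 96596 transcripts and 6 libraries, with 36 to 855 decimal values in a column, read from the values. Estimated counts were rounded to whole numbers. Every column matched 1 sample by its title, and 0 columns were left over.

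CPM used the column totals. A ratio against a count of 0 was taken against 3 counts and is a bound, and no ratio was given where that bound fell on the other side of 1. Intervals are 95% Clopper-Pearson on the pair of counts and leave out the scaling. With 1 library per group no test was made. Factors came from edgeR 4.0.16 and DESeq2 1.42.0 in R 4.3.3, and the rest from Python 3.11.15 with SciPy 1.17.1, matplotlib 3.10.9, NumPy 2.4.6 and pandas 2.3.3. The wider set held transcripts that reached 1 CPM in any library and had at least 50 counts in the pair.

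Named members were the 2 with the highest lower bound of the fold, the 2 with the lowest upper bound, and the 2 most abundant steady ones. The member rule, calls and alternatives were chosen with earlier results of these data known. Alternatives were other scalings, member thresholds, floors, folds and interval levels.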

Additional observations from a re-analysis of the deposited data

How the results depend on the processing

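With column totals, 50 members were at least 4-fold higher and 14 lower in initial 2, 36 and 39 were called by interval, and the median log2 ratio was 0.05. TMM over kept transcripts gave 95, 7, 104 and 15, and a median of 0.49. TMM over members, DESeq2 size factors over members, totals without the 10 members with most counts, and counts as deposited kept all 5 values within 1.5-fold or 0.1 log2. So did choosing members on the 4 libraries outside the pair. A mean of 50 CPM gave 114 and 39 by the 4-fold rule and 48 and 63 by interval, on 4071 transcripts. A mean of 200 CPM gave 28 and 5, and 28 and 20 by interval, on 816. A mean of 500 CPM gave 13 and 0, 12 and 3 by interval, and a median of 0.24, on 222. No mean filter gave 221, 1333, 57 and 217, and a median of -0.32. The cause of these changes was not tested. A prior count of 2 gave 13 at least 4-fold lower and 77 at least 4-fold higher, since counts of 0 then pass as folds. At least 10 counts in initial 1 gave 7 at least 4-fold higher and 13 lower, and 12 higher and 39 lower by interval, on 1610 members. Folds of 2 and 8 gave 207 and 122, and 13 and 3. Intervals beyond 1-fold gave 319 and 280, and beyond 4-fold 4 and 5. A 99% interval gave 21 higher and 28 lower. Of 41 ratios of named members under alternatives, 36 lay inside the 95% interval of the main value and 5 lay outside it, all under TMM over kept transcripts. The interval of c158147_g2_i3 had no upper limit, so no larger value could fall outside it. Its log2 of 10.97 with a prior count of 2, against a bound of 2.87, thus counted as inside. The 4 higher and lower members kept their direction in all of their ratios under alternatives. They were picked for folds far from 1, so this was bound to come out and is no sign of robustness. Of the steady members 1 ratio changed sign, c237575_g1_i1 at a log2 of -0.04 with column totals and 0.40 with TMM over kept transcripts. No paired analysis was possible because the pair holds 1 library a side with no replicate numbers, and leaving out a replicate was not possible for the same reason. The rounds share the initial and full stages, but a model of stage plus round was not run, since it leaves 1 residual degree of freedom. The depth of initial 1, the single pools and the scaling all limit the comparison.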
